A study of Mus musculus with 8 samples.

Results

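Messenger RNA levels of 9 dopamine genes were compared between the hippocampus of Kv10.1 -/- knockout mice and that of Kv10.1 +/+ wildtype mice. The 9 genes encode the 5 dopamine receptors (Drd1 to Drd5), the dopamine-making enzyme tyrosine hydroxylase (Th), the monoamine oxidases (Maoa and Maob) and the signalling protein DARPP-32 (Ppp1r1b). They were chosen by gene symbol, for their relevance to how these knockouts respond to dopaminergic drugs, and each was read by 1 of the 20985 probe sets of the array. All 8 animals were untreated males aged 8 weeks, 4 per genotype, and each array carried the hippocampal RNA of 1 mouse. Kcnh1 encodes Kv10.1 (Eag1), a potassium channel opened by depolarisation, and the sources used here do not give the strain or which part of the gene was removed.

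Dopamine acts through G protein-coupled receptors of a D1 class (Drd1, Drd5), which raise cyclic AMP, and a D2 class (Drd2, Drd3, Drd4), which lower it. Dopamine neurons lie in the midbrain and send axons to the hippocampus, so the receptor transcripts are made by hippocampal cells whereas most of the machinery for making and packing dopamine is transcribed elsewhere. Dopamine in the hippocampus is known for its part in the persistence of synaptic plasticity and in memory of unfamiliar events. In the bulk tissue measured here, fewer cells of a type and less RNA per cell cannot be told apart.

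The stretches just before the annotated start of 1 gene of synthesis and 1 receptor of each class are shown because these are where transcription of the genes compared begins. RefSeq (GRCm38.p6) gave such windows for 7 of the 9 genes, with 2 starts for Drd1, and not for Maob or Ppp1r1b. Each run below covers the 250 bases before the start, 5′ to 3′ on the gene's strand, and capitals mark matches on either strand to TGACGTCA, the cyclic AMP response element, or to GGGCGG, the GC box. The Th run is chr7:142899996-142900245 on the minus strand. The Drd1 run, from the first of its starts, is chr13:54055659-54055908 on the minus strand, and the Drd2 run is chr9:49340153-49340402 on the plus strand.
Th: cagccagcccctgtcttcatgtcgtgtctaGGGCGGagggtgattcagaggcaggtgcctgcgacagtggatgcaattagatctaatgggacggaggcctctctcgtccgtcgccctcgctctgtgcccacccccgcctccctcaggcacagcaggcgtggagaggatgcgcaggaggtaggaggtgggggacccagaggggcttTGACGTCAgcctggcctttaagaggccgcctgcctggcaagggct
Drd1: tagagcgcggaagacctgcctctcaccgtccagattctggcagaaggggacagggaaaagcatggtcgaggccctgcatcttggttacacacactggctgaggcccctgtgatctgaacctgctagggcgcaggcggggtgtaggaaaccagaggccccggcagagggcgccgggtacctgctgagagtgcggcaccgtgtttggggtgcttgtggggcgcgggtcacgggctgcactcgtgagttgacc
Drd2: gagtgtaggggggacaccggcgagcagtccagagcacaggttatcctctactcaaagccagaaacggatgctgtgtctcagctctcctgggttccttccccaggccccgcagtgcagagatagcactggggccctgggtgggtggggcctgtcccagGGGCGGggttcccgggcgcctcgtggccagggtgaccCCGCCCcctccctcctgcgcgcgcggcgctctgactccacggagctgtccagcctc
Th carried 1 cyclic AMP response element, ending 37 bases before its start, a match held by 1.55% of 32851 windows of this length, and no other window of the 9 genes carried one. The GC box was found 3 times before Drd4, with its first pair overlapping, 2 times before Drd2 and before Drd5, and 1 time before Th, Maoa and the second start of Drd1, against 32.7% of all windows with at least 1. The Drd3 window and that of the first Drd1 start held neither motif. TATAAA was in none of the 8 windows and in 12.4% of all. These matches describe letters and are neither sites nor causes.

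The labels were checked on Kcnh1, which read 8.36, 8.31, 8.43 and 8.29 in knockout 1 to 4 and 9.52, 9.35, 9.22 and 9.27 in wildtype 1 to 4. The groups did not overlap, and the difference was -0.99 ± 0.081 (SE; limma adjusted p = 0.00319, exact two-sided permutation p = 0.0286, the smallest that 35 splits allow). It was the single probe set past an adjusted p of 0.05, which is 0.00477% of all. Arrays of wildtype 1 and knockout 1 stood apart at the high end of the first principal component, with scores of 32.0 and 14.9. The other 6 scored -15.9 to 0.81, and knockout 4, the lowest, lay about as far to the other side as knockout 1. The difference of each of the 9 genes, and of other named genes at an unadjusted p under 0.05, is also given without wildtype 1 and knockout 1. Mouse numbers fell into a lower series, with wildtype 1 to 3 and knockout 1, and a higher series, with wildtype 4 and knockout 2 to 4. Hippocampal principal neuron markers were high on every array, with a mean level over 12 genes of 9.51 to 9.73 in knockouts and 9.63 to 9.67 in wildtype mice. Levels are the deposited log2 values, on which 1 unit is a doubling. Signal over background was not analysed. As a guide to low signal, 127 probe sets of vomeronasal type 1 receptors, which belong to another organ, had a median of 5.60. Their 95th percentile was 6.35, and the means of all 9 dopamine genes lay above it. The highest of the 127 was at 8.59, above the means of Drd1, Drd2, Drd3, Drd4, Th and Maoa. The midbrain dopamine neuron markers Slc6a3, Pitx3, En1 and Foxa2 averaged 7.21, 7.29, 6.75 and 7.37. Beside these, Drd3 averaged 6.965, Th 7.115, Drd4 7.20 and Drd2 7.53. How much of such levels is background was not tested. Probe sets differ in how strongly they respond, so levels were not used to order genes by abundance.

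None of the 9 dopamine genes passed the test in either direction, at a limma adjusted p of 0.997 for each. None was at an unadjusted p under 0.05 and none had groups that did not overlap, where 3.16% and 2.16% of all probe sets did. Differences, given throughout as knockout minus wildtype, ran from -0.06 for Th to 0.20 for Maob. The 95% intervals of the 9 genes together spanned -0.27 to 0.50. A knockout level 1.42 times the wildtype level therefore lay at the highest upper edge, that of Maob, and one of 0.83 times at the lowest edge, that of Ppp1r1b. A p that misses the threshold does not show that the genotypes act alike within these bounds. The difference was above 0 for 8 of the 9 genes, with a median of 0.06 against -0.0025 over all probe sets. All 9 come from the same 8 arrays, so a shared sign is not 9 separate results.

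**Figure D1:**
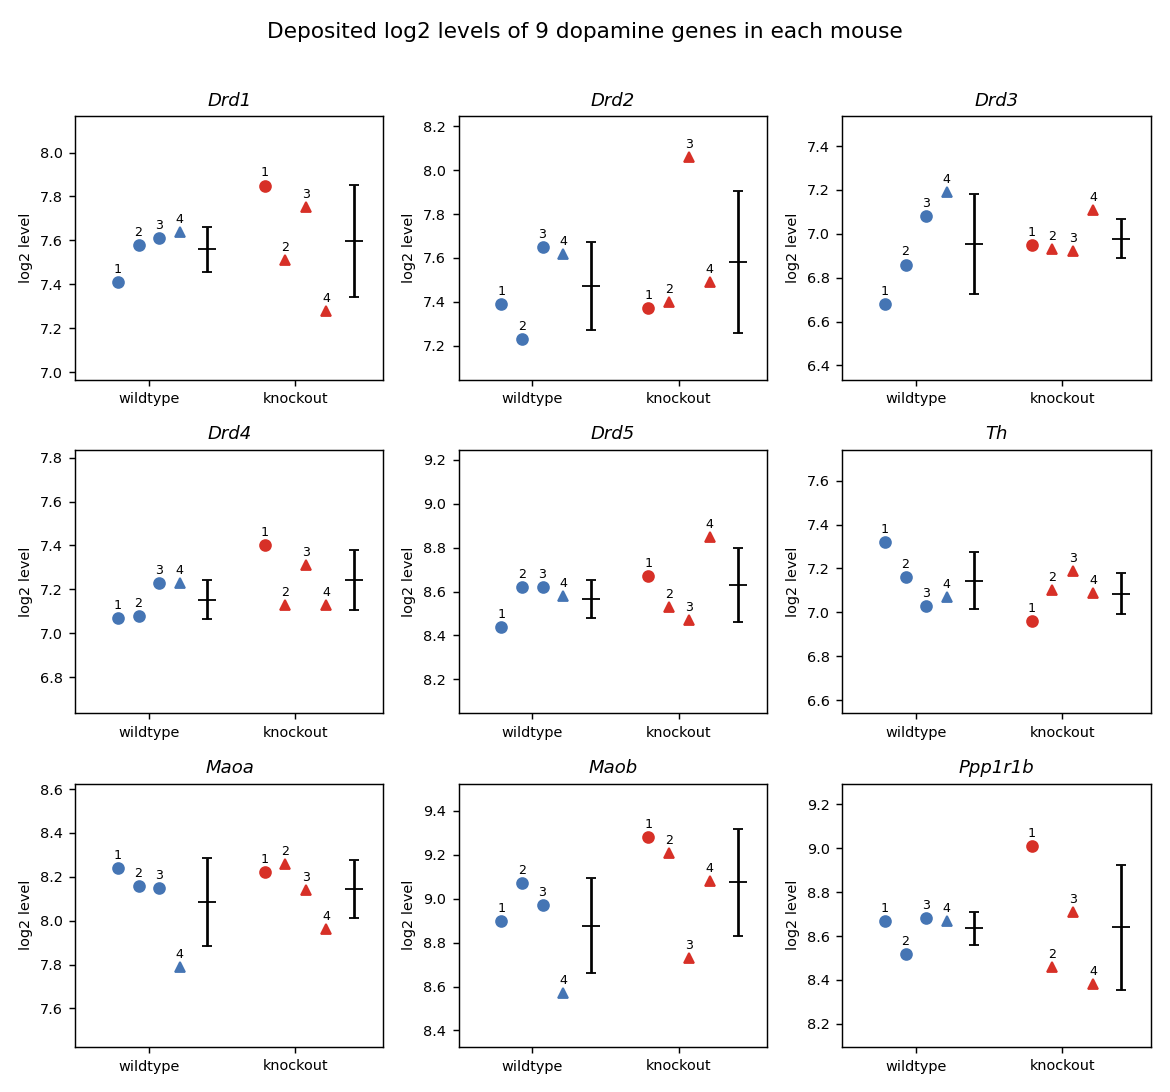
Deposited log2 level of each of the 9 genes in every mouse, with wildtype in blue and knockout in red, circles for the lower and triangles for the higher series of mouse numbers, and digits for the replicate. Bars give the mean and SD of the 4 mice, every panel spans 1.2 log2 units, and in every panel the ranges of the genotypes overlap.

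Drd1 encodes the main D1-class receptor of forebrain neurons. It read 7.85, 7.51, 7.75 and 7.28 in knockout 1 to 4 and 7.41, 7.58, 7.61 and 7.64 in wildtype 1 to 4. Knockouts held both ends of the range, with knockout 1 and 3 above every wildtype mouse and knockout 4 below all of them. The knockout mean was 7.60 ± 0.255 and the wildtype mean 7.56 ± 0.103 (SD, n = 4 each), which differ by 0.04 ± 0.120 (SE). It was -0.05 without knockout 1, -0.01 without knockout 3 or wildtype 1, and 0.14 without knockout 4. Without both arrays that stand apart it was -0.10.

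Drd5 encodes the other D1-class receptor, which binds dopamine more tightly than Drd1. Its values were 8.67, 8.53, 8.47 and 8.85 in knockouts and 8.44, 8.62, 8.62 and 8.58 in wildtype mice. Knockout 4, the lowest array for Drd1, was the highest for Drd5. The difference was 0.07 ± 0.093 (SE), or -0.01 without knockout 4 and 0.01 without wildtype 1 and knockout 1.

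Drd2, the target of classical antipsychotic drugs such as haloperidol, encodes a D2-class receptor that in the mouse hippocampus marks the mossy cells of the hilus. It read 7.37, 7.40, 8.06 and 7.49 in knockouts and 7.39, 7.23, 7.65 and 7.62 in wildtype mice. Knockout 3 lay 0.41 above the next array, and the other 3 knockouts fell within the wildtype range. The means were 7.58 ± 0.324 and 7.47 ± 0.199 (SD, n = 4 each), and the difference of 0.11 ± 0.156 (SE) was -0.05 without knockout 3 and 0.15 without wildtype 1 and knockout 1. Its within-genotype SD of 0.269 was higher than that of 92.9% of all probe sets. Knockout 3 also gave the highest level of Slc18a2, the vesicular monoamine transporter, at 7.76 against 7.06 to 7.54 elsewhere. The mean level of 12 midbrain dopamine neuron markers was likewise highest there, at 7.28 against 7.04 to 7.11 in the other knockouts and 7.04 to 7.14 in wildtype mice. Noradrenergic and serotonergic neuron markers were also highest in knockout 3, at 6.57, but wildtype 4 was close behind at 6.555. The part of these markers in the Drd2 value was not tested.

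Mossy cell markers were read beside Drd2, and whether they vary with it from mouse to mouse was not tested. The difference was below 0 for each of the 5 measured markers (median -0.07), where 50.9% of all probe sets lay below 0. Calcrl, Csf2rb2 and Nmb were at -0.07, -0.035 and -0.03. The mean level of the markers was 7.21 to 7.33 in knockouts and 7.35 to 7.61 in wildtype mice, with wildtype 1 the highest. The part of mossy cells in the Drd2 values was not tested. Calb2, the calretinin gene, read 7.65, 7.80, 7.54 and 7.33 in knockouts and 8.42, 8.16, 7.84 and 7.58 in wildtype mice, a difference of -0.42 ± 0.169 (SE; limma adjusted p = 0.997). Sv2c, a synaptic vesicle protein, read 7.99, 7.98, 8.29 and 7.93 in knockouts and 8.72, 8.05, 8.30 and 8.30 in wildtype mice. It differed by -0.30 ± 0.136 (SE), and knockout 3 was its highest knockout, as for Drd2. Neither passed the test. Wildtype 1, which stands apart, was the highest array for both, and without it Calb2 was at -0.28 and Sv2c at -0.17. Without wildtype 1 and knockout 1 they were at -0.30 and -0.15, and Calb2 was at -0.26 with the mouse-number series as a block.

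Drd3 and Drd4 encode the other D2-class receptors. Drd3 read 6.95, 6.93, 6.92 and 7.11 in knockouts and 6.68, 6.86, 7.08 and 7.19 in wildtype mice, so that all knockouts lay inside the wildtype range. Its difference of 0.03 ± 0.110 (SE) was -0.07 without wildtype 1 and 0.10 without wildtype 4, and it also fell below 0 without knockout 4 (-0.02) or wildtype 2 (-0.0058). Without both arrays that stand apart it was -0.06. Drd4 read 7.40, 7.13, 7.31 and 7.13 in knockouts and 7.07, 7.08, 7.23 and 7.23 in wildtype mice. Knockout 1 and 3 were the highest arrays for Drd4, as they were for Drd1. The Drd4 difference of 0.09 ± 0.085 (SE) was 0.01 without wildtype 1 and knockout 1.

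Th encodes the rate-limiting enzyme of dopamine synthesis. Its values were 6.96, 7.10, 7.19 and 7.09 in knockouts and 7.32, 7.16, 7.03 and 7.07 in wildtype mice. The arrays that stand apart held both extremes, with wildtype 1 highest and knockout 1 lowest. The difference of -0.06 ± 0.085 (SE) was 0.04 without them and -0.0017 without wildtype 1 alone. Defining markers of midbrain dopamine neurons were measured on the same arrays, and Slc6a3, the dopamine transporter gene, averaged 7.25 ± 0.156 in knockouts and 7.17 ± 0.075 in the wildtype group (SD, n = 4 each). Dbh, which converts dopamine to noradrenaline and marks noradrenergic neurons, was at 6.25 ± 0.111 and 6.22 ± 0.086. Both of these Dbh means lay below the vomeronasal 95th percentile of 6.35.

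Maoa and Maob encode the enzymes that oxidise dopamine and other monoamines, and in the gene table no gene lies between them on the X chromosome. In the brain, Maoa is found mainly in catecholamine neurons and Maob in astrocytes and serotonin neurons. Maob read 9.28, 9.21, 8.73 and 9.08 in knockouts and 8.90, 9.07, 8.97 and 8.57 in wildtype mice. Knockout 1, 2 and 4 lay above every wildtype mouse, the last by 0.01, and knockout 3 lay below all but wildtype 4. The means were 9.08 ± 0.245 and 8.88 ± 0.217 (SD, n = 4 each), which is a difference of 0.20 ± 0.137 (SE) with an unadjusted limma p of 0.179. It ran from 0.10 without wildtype 4 to 0.31 without knockout 3, and was 0.14 without both arrays that stand apart.

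The Maob difference lay above 0 in both series of mouse numbers. Within the lower series knockout 1 read 0.30 above the mean of wildtype 1 to 3, and within the higher series the mean of knockout 2 to 4 was 0.44 above wildtype 4. Each of these rests on a single mouse of 1 genotype. With the series as a block the difference was 0.37 ± 0.121 (SE; limma unadjusted p = 0.0128, limma adjusted p = 0.861), and over the 18 alternative fits its adjusted p was 0.810 or more. Astrocyte markers did not show a like difference. Over 8 genes their median was -0.02, with 4 higher and 4 lower, and their mean level was 10.36 to 10.54 in knockouts and 10.37 to 10.63 in wildtype mice. Wildtype 4, the lowest array for Maob, and knockout 4 had the lowest astrocyte levels, and the part of those markers in the Maob values was not tested.

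Maoa read 8.22, 8.26, 8.14 and 7.96 in knockouts and 8.24, 8.16, 8.15 and 7.79 in wildtype mice. Wildtype 4 was the lowest array for Maoa as for Maob, and the other 7 lay between 7.96 and 8.26. The difference of 0.06 ± 0.109 (SE) was -0.04 without wildtype 4 and 0.09 without wildtype 1 and knockout 1. It was 0.04 within the lower series and 0.33 within the higher, where wildtype 4 is the single wildtype mouse, and 0.18 ± 0.102 (SE) with the series as a block.

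Ppp1r1b encodes DARPP-32, which inhibits protein phosphatase 1 when phosphorylated by the cyclic AMP-dependent kinase and so relays D1-class signals in striatal neurons. It read 9.01, 8.46, 8.71 and 8.38 in knockouts and 8.67, 8.52, 8.68 and 8.67 in wildtype mice. The means were all but equal, at 8.64 ± 0.284 and 8.64 ± 0.077 (SD, n = 4 each), with a difference of 0.005 ± 0.126 (SE). All 4 knockouts lay outside the wildtype range, 2 above and 2 below. Leaving out knockout 1 gave a difference of -0.12, and leaving out knockout 4 gave 0.09. It was also below 0 with knockout 3 (-0.02) or wildtype 2 (-0.03) left out, and -0.11 without wildtype 1 and knockout 1. Within the lower series it was 0.39 and within the higher -0.15.

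**Figure D2:**
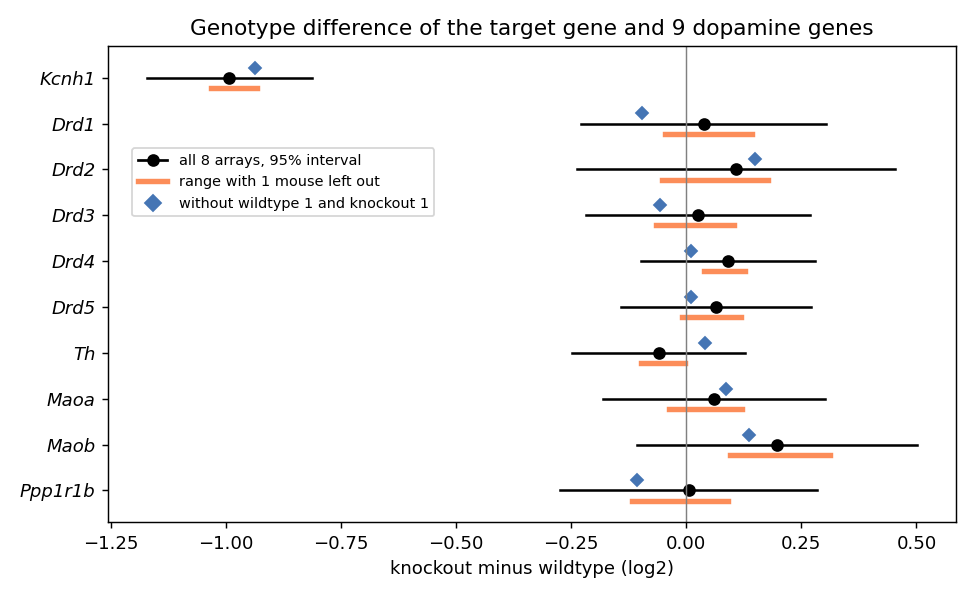
Knockout minus wildtype in log2 units for Kcnh1 and the 9 dopamine genes. Black points and lines give the value and 95% interval from all 8 arrays, orange bars the range with 1 mouse left out in turn, and blue diamonds the value without wildtype 1 and knockout 1; every interval but that of Kcnh1 holds 0.

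Spread within genotypes differed more between some of these genes than their means. The knockout SD was 3.70 times the wildtype SD for Ppp1r1b and 2.48 times for Drd1, ratios exceeded by 2.81% and 7.40% of all probe sets. For Drd3 the ratio was 0.392, the lowest of the 9. The knockout SD was the larger for 6 of the 9 genes, where it was so for 42.9% of all probe sets. Knockout 1 was the highest array for Drd1, Drd4, Maob and Ppp1r1b and the lowest for Th. Wildtype 1 was the lowest for Drd3, Drd4 and Drd5 and the highest for Th. These ratios come from 4 mice per genotype and were not tested.

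The direction of most differences also turned between the series of mouse numbers. Drd1, Drd2, Drd3, Drd4, Th and Ppp1r1b had opposite signs in the lower and the higher series, while Drd5, Maoa, Maob and Kcnh1 kept theirs. For Drd1 the values were 0.32 and -0.13, for Drd4 0.27 and -0.04, and for Th -0.21 and 0.06. The lower series holds a single knockout, which is 1 of the arrays that stand apart, and the higher series a single wildtype mouse. The share of all probe sets whose sign turns in this way was not computed.

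Pairs of the genes were then compared from mouse to mouse, and no pair passed after adjustment. Over the 36 pairs and 8 arrays, 5 had an exact permutation p under 0.05 for Pearson's r, 3 positive and 2 negative, and none after Benjamini-Hochberg adjustment. Drd1 and Drd4 gave r = 0.835 (exact p = 0.0100, adjusted p = 0.203) and rho = 0.855 (exact p = 0.00992, adjusted p = 0.179), and r = 0.877 without knockout 4 and knockout 1, the mice farthest from the Drd1 median. Drd1 and Ppp1r1b gave r = 0.820 (exact p = 0.0152, adjusted p = 0.203) and rho = 0.862 (exact p = 0.00863, adjusted p = 0.179). Without the same 2 mice r was 0.385, and leaving out the mice farthest from the Drd1 median also narrows the range of Drd1. Drd4 and Ppp1r1b gave r = 0.797 (exact p = 0.0177, adjusted p = 0.203) and rho = 0.721 (exact p = 0.0516, adjusted p = 0.374), with r = 0.400 without knockout 1 and knockout 3. The negative pairs both held Drd3. With Maoa it gave r = -0.772 (exact p = 0.0225, adjusted p = 0.203) and rho = -0.667 (exact p = 0.0831, adjusted p = 0.499). With Th it gave r = -0.709 (exact p = 0.0486, adjusted p = 0.350) and rho = -0.762 (exact p = 0.0368, adjusted p = 0.374). Without wildtype 1 and wildtype 4, the mice farthest from the Drd3 median, r was -0.651 and -0.412. The neighbouring genes Maoa and Maob, not among the 5, gave r = 0.633 (exact p = 0.0863, adjusted p = 0.433) and rho = 0.548 (exact p = 0.171, adjusted p = 0.513), with r = 0.573 without wildtype 4 and knockout 4. Each series of mouse numbers holds 4 arrays, and the relations were not computed within a series.

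**Figure D3:**
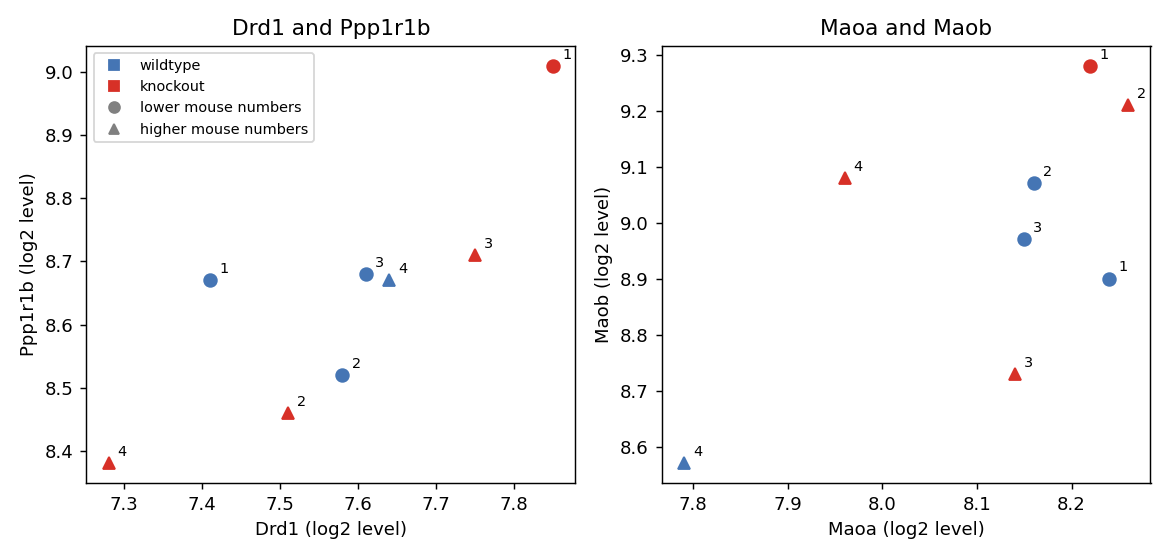
Log2 levels of Ppp1r1b against Drd1 (left) and of Maob against Maoa (right), 1 point per mouse, coloured by genotype, shaped by series of mouse numbers and numbered by replicate. Knockout 1 and knockout 4 lie at opposite ends of the left panel, and wildtype 4 at the lower left of the right panel.

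Striatal projection neurons carry high levels of Drd1, Drd2 and Ppp1r1b, so their markers were read beside these genes. The 10 measured markers had a mean level of 8.24 in knockout 1, where knockout 2 to 4 had 8.08 to 8.11 and wildtype mice 8.04 to 8.17. Adcy5, the main adenylyl cyclase of striatal neurons, was at 9.12 in knockout 1 and 8.25 in knockout 4, as Drd1 and Ppp1r1b were highest and lowest there. In those mice the defining markers were at 8.29 and 8.29 for Rgs9, 7.41 and 7.35 for Gpr6, and 7.69 and 7.42 for Rarb. None of the markers passed the test and none was listed at 0. The part of striatal tissue in the Drd1 and Ppp1r1b values was not tested.

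The other genes of the pathway gave no call either. Of 84 listed genes of dopamine synthesis, transport, breakdown and receptor signalling, 79 were measured, and 0 passed limma's test at an adjusted p of 0.05 (0.997 or more for each). At an unadjusted p under 0.05 there were 4, or 5.06%, 2 higher and 2 lower, against 3.16% of all probe sets. Their median difference was -0.0025, the same as over all probe sets, with 37 above 0 and 40 below.

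Synthesis and transport genes had the narrowest range of differences of the 5 pathway groups, which hold 8 to 33 measured genes. By the median size of a difference they were close to the breakdown and noradrenaline genes, at 0.0425 against 0.0437. Some of the synthesis and transport genes were dim. Gch1 averaged 6.05, below the vomeronasal 95th percentile of 6.35, and Slc18a1 averaged 6.39. The part of low signal in this range was not tested. The 10 genes, which make the cofactor tetrahydrobiopterin, decarboxylate DOPA and carry dopamine across membranes, had a median of 0.01 and ran from -0.09 to 0.08. The smallest p belonged to Gch1, which starts cofactor synthesis (-0.09 ± 0.082, SE), Slc6a3 (0.08 ± 0.089) and Ddc, the DOPA decarboxylase gene (-0.06 ± 0.093). Among 8 genes of breakdown and noradrenaline, Aldh2, a mitochondrial aldehyde dehydrogenase that acts on the aldehyde made by the monoamine oxidases, read 8.56, 8.65, 8.51 and 8.38 in knockouts and 9.15, 8.81, 8.68 and 8.64 in wildtype mice. Its difference was -0.30 ± 0.114 (SE; limma unadjusted p = 0.0263, adjusted p = 0.997), and the groups overlapped by knockout 2 alone. It was -0.19 without wildtype 1 (limma unadjusted p = 0.0528, limma adjusted p = 0.998) and -0.20 without wildtype 1 and knockout 1. Sult1a1, a sulfotransferase of phenols, differed by -0.11 ± 0.132 (-0.02 without knockout 2, -0.22 without knockout 4) and Slc6a2, the noradrenaline transporter gene, by 0.05 ± 0.073.

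Receptor signalling genes were spread more widely. Of 33 G protein, cyclase, kinase, phosphodiesterase and desensitisation genes, 12 lay above 0 and 20 below, from -0.29 to 0.17 with a median of -0.03. Adcy9, a widely expressed adenylyl cyclase, was 9.63, 9.59, 9.53 and 9.68 in knockouts and 9.93, 9.74, 9.74 and 9.75 in wildtype mice, which did not overlap. Its difference was -0.18 ± 0.073 (SE; limma unadjusted p = 0.0307, adjusted p = 0.997), or -0.14 without both arrays that stand apart, and it was the 1 gene of the 79 without overlap, where 2.16% of all probe sets had none. Adcy1, the calmodulin-stimulated cyclase of granule cells, differed by -0.29 ± 0.157 and Grk6, a receptor kinase, by -0.25 ± 0.130. Without wildtype 1 these were -0.13 and -0.12.

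Among 20 kinases, phosphatases and relatives that act with DARPP-32, 11 lay above 0 and 9 below, with a median of 0.02. Arpp19, a relative of endosulfine that inhibits protein phosphatase 2A, read 10.45, 10.21, 10.14 and 10.41 in knockouts and 9.87, 10.08, 10.16 and 9.79 in wildtype mice, a difference of 0.33 ± 0.105 (SE; limma unadjusted p = 0.0105, adjusted p = 0.997). It was 0.24 without wildtype 1 and knockout 1. Ppp3cb, a catalytic subunit of calcineurin, which removes phosphate from DARPP-32, differed by 0.22 ± 0.084 (SE; unadjusted p = 0.0240, adjusted p = 0.997), and by 0.22 without those arrays too. The kinase gene Csnk1e differed by -0.24 ± 0.115 (-0.13 without wildtype 1). Of 8 genes for receptor-binding proteins, Gipc1 differed by -0.30 ± 0.178 (-0.10 without wildtype 1), Ppp1r9b, the spinophilin gene, by -0.12 ± 0.089 (-0.18 without knockout 1) and Dnajc14 by 0.14 ± 0.127 (0.015 without wildtype 1 and -0.06 without wildtype 1 and knockout 1). None of these passed the test.

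**Figure D4:**
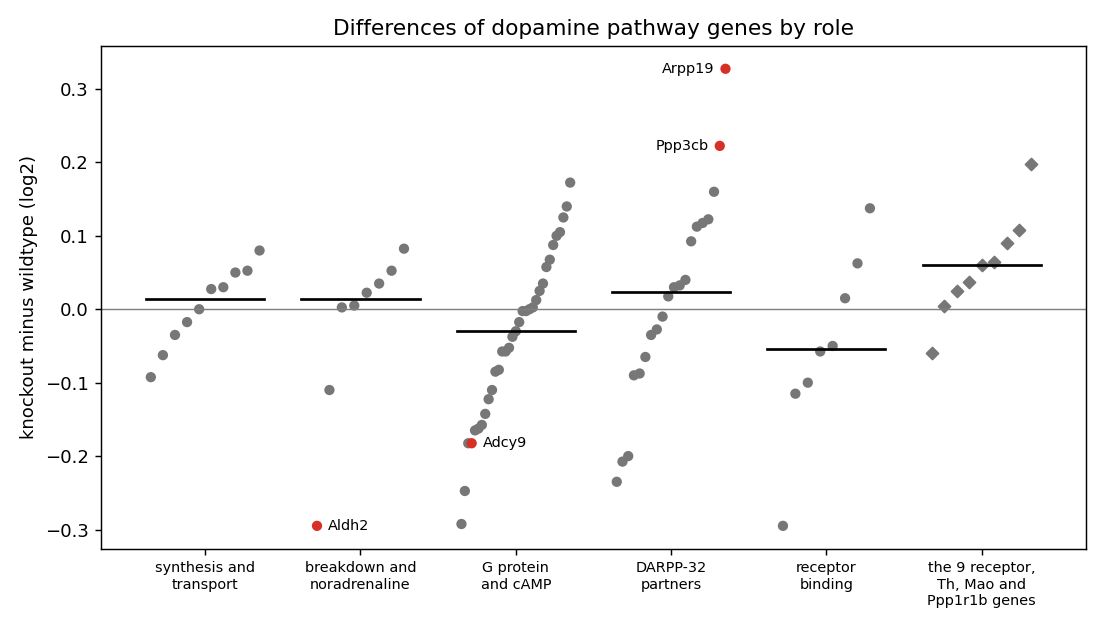
Knockout minus wildtype in log2 units for the 79 measured pathway genes by role (circles) and the 9 dopamine genes (diamonds), with black lines at the medians. Red points are the 4 genes at an unadjusted p under 0.05, none of which passed after adjustment over all probe sets.

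No gene of the other marker lists passed the test. Noradrenergic and serotonergic neuron markers, 6 genes, had a median of 0.02 and a mean level of 6.47 to 6.57 in knockouts and 6.40 to 6.55 in wildtype mice. Interneuron markers had a median of 0.06 over 10 genes. Choroid plexus and ependyma markers had a median of -0.13 over 9 genes and were highest in wildtype 2 (8.49 against 7.52 to 7.86 in the other 7 arrays), which was the lowest array for Drd2. Of the midbrain markers, Nr4a2, an orphan nuclear receptor that cortical and hippocampal neurons also make, differed by 0.31 ± 0.129 (SE; limma unadjusted p = 0.0345, adjusted p = 0.997), and by 0.29 without wildtype 1 and knockout 1. Of the 12 hippocampal principal neuron markers, 8 lay below 0, with a median of -0.10, and 2, or 16.7%, were at an unadjusted p under 0.05, against 3.16% of all probe sets. Dsp, the desmoplakin gene of granule cells, read 8.76, 8.75, 9.18 and 9.09 in knockouts and 9.40, 9.23, 9.31 and 9.36 in wildtype mice, which did not overlap, where 2.16% of all probe sets had no overlap. Its difference was -0.38 ± 0.107 (SE; limma unadjusted p = 0.00480, adjusted p = 0.997), or -0.29 without wildtype 1 and knockout 1. Amigo2, a CA2 marker, differed by -0.28 ± 0.095 (SE; limma unadjusted p = 0.0142, adjusted p = 0.997), or -0.23 without those arrays.

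For the 6 dopamine genes whose mean lay above the median probe set, the genes that varied most like each were taken from the 10034 other named probe sets above the median level, by Pearson's r over the 8 arrays. They are the highest of a long list and share all 8 arrays, so no test applies. For Drd1 they were Gm7932 (r = 0.968), Slc9a3r1 (0.950) and Zfp513 (0.930), with 42 genes more like it than Ppp1r1b. For Ppp1r1b they were Tbl3 (0.975), 2310033P09Rik (0.948) and Inka2 (0.941). For Drd2 they were Car7, a carbonic anhydrase gene (0.937), Fbxo36 (0.903) and Rasd1 (0.903). For Drd5 they were Swt1 (0.970), Jmy (0.965) and Gabpa (0.960). For Maob they were Sf3a3 (0.973), Mapre2 (0.955) and Acvr1c (0.954), and for Maoa AW209491 (0.969), Rbsn (0.959) and Msi2 (0.954). Without the 2 mice farthest from each gene's median, r fell to between 0.642 for Rbsn with Maoa and 0.931 for Tbl3 with Ppp1r1b. Spearman's rho for the 18 pairs ran from 0.810 to 0.976. Maob was less like Maoa than were 1294 of those genes.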

How the data were processed

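Values are the deposited log2 levels, 1 per probe set and array, made by the authors with R 2.9, limma and RMA (background subtraction, quantile normalization and probe summarisation), per the submitters' processing notes. The sources used here give no settings. Array titles gave the genotype, and replicate numbers follow record order and pair nothing. Titles give a different mouse for every array, so the replicates are animals. Symbols came from the platform annotation, where each of the 9 genes has 1 probe set, and aliases, chromosomes and promoter windows from RefSeq (GRCm38.p6).

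All 20985 probe sets were fitted with limma 3.58.1 in R 4.3.3 (genotype as the single factor, default moderation by lmFit and eBayes, two-sided), with Benjamini-Hochberg adjustment over all of them at 0.05. The fit was tested on simulated data with independent noise in each probe set and array, which leaves out variation that arrays share. Intervals are 95%. Alternatives were other eBayes options, array weights, repeated quantile normalization, median centring, filters on dim probe sets, the mouse-number series as a block, the first principal component as a covariate, and mice left out. A list's mean level is the mean log2 level of its measured genes on an array. Correlations between the 9 genes used all 40320 orders of the 8 arrays. The 9 genes, the lists and the tests were chosen with earlier results of these data known. Besides the 9 genes and Kcnh1, the text names from each pathway list the 3 genes of smallest p, and for 6 of the 9 genes the 3 most alike. Aldh2, Adcy9, Arpp19 and Ppp3cb fall under that rule. Calb2, Sv2c, Nr4a2, Dsp, Amigo2, Adcy5, Slc18a2 and other markers were singled out after their values were seen, as were the printed promoters. With 8 arrays, the median SE of a difference was 0.0922.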

Additional observations from a re-analysis of the deposited data

Results flagged for a closer look

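In 20 groups of 4 mice, the dopamine genes and Kcnh1 in each genotype, a single array far from the others was looked for by its gap over the group's range. Such a gap arises by chance in about 1 of 20 groups. Drd3 in knockout 4 read 7.11, where the other knockouts read 6.92 to 6.95. Ppp1r1b in wildtype 2 read 8.52, where the other wildtype mice read 8.67 to 8.68.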

How the results depend on the processing

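Over 18 alternative fits, the count of the 9 genes past an adjusted p of 0.05 stayed at 0, that of pathway genes stayed at 0, and Kcnh1 ran from -1.03 to -0.93 and passed in each. At an unadjusted p under 0.05, Maob joined with the mouse-number series as a block and without knockout 3, and pathway genes numbered 1 to 7. Drd4 and Maob kept their sign in all alternatives that tested them. With array weights the difference was -0.018 for Drd1, -0.036 for Drd3, -0.020 for Drd5, -0.046 for Ppp1r1b and -0.013 for Slc6a3. With the series as a block it was -0.012 for Drd2 and -0.063 for Drd3. Without wildtype 1 and knockout 1 it was -0.097 for Drd1, -0.057 for Drd3, 0.040 for Th, -0.107 for Ppp1r1b, 0.033 for Ddc and -0.063 for Dnajc14. With the first principal component as a covariate Drd3 was at -0.024. With each mouse left out in turn the range was -0.047 to 0.143 for Drd1, -0.053 to 0.178 for Drd2, -0.066 to 0.104 for Drd3, -0.0083 to 0.118 for Drd5, -0.038 to 0.122 for Maoa and -0.118 to 0.092 for Ppp1r1b. The cause of these turns was not tested. No gene had several probe sets, so that choice gave no alternative, and genes below the filter had no value without the dimmest 25% or 50%. No paired analysis was possible because replicate numbers follow record order and pair no mice.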
